A study of Mus musculus with 8 samples.

Results

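Neutrophil granule and alarmin transcripts were followed as a group of 10 genes, listed by symbol, in expression data from mouse microglia. The genes were S100a8, S100a9, Ngp, Camp, Ltf, Lcn2, Mmp8, Mmp9, Retnlg and Wfdc21, and all 10 were found, with 1 probe set each, among 30560 named genes. RNA came from microglia of C57Black/6J mice, hybridised on 8 whole-transcript arrays with 1 array in each of 8 groups, which cross 2 genotypes with 4 states. The control genotype is labelled FL, or F/F on the p50 arrays, and the source label of the iguratimod control array calls its mice wt. The icKO genotype carries a conditional knockout of connexin 47 (Cx47) directed at oligodendroglia rather than at microglia. Mice were either naive or had experimental autoimmune encephalomyelitis (EAE), in which immune cells attack myelin of the central nervous system. Some EAE mice received iguratimod, an antirheumatic drug (EAE IGU), and a last pair of arrays carries the mark p50 (EAE p50), which the labels do not explain. The promoter that drives the deletion, the drug dose, the age of the mice, the number of mice behind an array and the way microglia were isolated are not given in the sources used here.

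Neutrophils store antimicrobial proteins in granules that are filled in sequence while the cell matures in the bone marrow. Primary (azurophil) granules form at the promyelocyte stage and hold myeloperoxidase and serine proteases, specific (secondary) granules follow with lactoferrin and cathelicidin, and gelatinase (tertiary) granules are filled last. Mature neutrophils in blood and tissue have largely stopped transcribing the primary granule genes. Specific granule genes too are transcribed mainly while the cell matures in the marrow. S100a8 and S100a9 encode the subunits of calprotectin, a calcium-binding protein of the neutrophil cytosol that acts as an alarmin, a signal of damage, once released. In EAE, neutrophils enter the central nervous system with other blood leukocytes. Microglia are the resident macrophages of that tissue and are not known as a main source of specific granule proteins. In RNA from a bulk cell preparation, a different number of neutrophils and a different amount of RNA per cell cannot be told apart.

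Several of the genes share a chromosome. In the mouse assembly GRCm38.p6 the S100a8 and S100a9 genes lie together on chromosome 3. Camp, Ngp and Ltf lie in 1 stretch of chromosome 9, between bases 109847377 and 111042766. Mmp8 is on chromosome 9 too, but far from that stretch. Lcn2 and Mmp9 are on chromosome 2, Wfdc21 on chromosome 11 and Retnlg on chromosome 16. RefSeq start sites of that assembly were matched for 8 of the 10 genes, and the 250 bases before each start were searched on both strands for TTGCNNAA, a short form of the sequence bound by C/EBP factors, which drive granulocyte maturation. The letters TTGCNNAA were found before 6 of the 8 starts (S100a9, Ngp, Ltf, Lcn2, Mmp8 and Retnlg), against 9.56% of all 32851 start regions of the same length. They were not found in the windows of S100a8 and Camp. GAGGAA, the core bound by the myeloid factor PU.1, was present before 4 of the 8 (23.3% of all), and TATAAA before S100a8 only (12.4% of all). No 2 matches in these windows overlapped, and a match of letters is a description of the sequence, not of binding. To show where the matches lie, the upstream regions of 5 genes with a TTGCNNAA match are given, with that of S100a8, which has none and spans the largest range of levels of the 10. They are written 5′ to 3′, ending at the base before the start, with TTGCNNAA matches in capitals. The coordinates are chr3:90695722-90695971 (minus strand), chr9:110419558-110419807 (plus), chr9:111019042-111019291 (plus), chr2:32387740-32387989 (minus), chr9:7558179-7558428 (plus) and chr3:90668821-90669070 (plus).
S100a9: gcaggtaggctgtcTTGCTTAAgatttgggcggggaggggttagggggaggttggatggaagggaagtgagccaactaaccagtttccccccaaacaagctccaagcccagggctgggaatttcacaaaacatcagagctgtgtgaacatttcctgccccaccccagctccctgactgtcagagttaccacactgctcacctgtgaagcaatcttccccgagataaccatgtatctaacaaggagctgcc
Ngp: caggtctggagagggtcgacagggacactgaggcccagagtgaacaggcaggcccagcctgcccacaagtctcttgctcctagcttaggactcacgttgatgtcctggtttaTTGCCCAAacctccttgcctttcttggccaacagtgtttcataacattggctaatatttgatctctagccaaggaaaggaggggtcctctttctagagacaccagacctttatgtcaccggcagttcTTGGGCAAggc
Ltf: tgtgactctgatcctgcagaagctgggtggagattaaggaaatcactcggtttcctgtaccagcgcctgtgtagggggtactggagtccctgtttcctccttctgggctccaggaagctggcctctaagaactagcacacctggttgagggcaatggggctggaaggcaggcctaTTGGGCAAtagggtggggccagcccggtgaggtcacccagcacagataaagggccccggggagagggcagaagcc
Lcn2: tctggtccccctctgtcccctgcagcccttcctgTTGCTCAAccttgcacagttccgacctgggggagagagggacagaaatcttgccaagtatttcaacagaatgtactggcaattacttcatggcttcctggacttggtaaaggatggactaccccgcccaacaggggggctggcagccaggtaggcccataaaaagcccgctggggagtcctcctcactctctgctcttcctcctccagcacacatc
Mmp8: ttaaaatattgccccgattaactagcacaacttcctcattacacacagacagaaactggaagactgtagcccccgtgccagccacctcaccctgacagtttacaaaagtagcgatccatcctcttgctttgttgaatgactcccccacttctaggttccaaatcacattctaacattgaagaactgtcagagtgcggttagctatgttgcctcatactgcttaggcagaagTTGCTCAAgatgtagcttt
S100a8: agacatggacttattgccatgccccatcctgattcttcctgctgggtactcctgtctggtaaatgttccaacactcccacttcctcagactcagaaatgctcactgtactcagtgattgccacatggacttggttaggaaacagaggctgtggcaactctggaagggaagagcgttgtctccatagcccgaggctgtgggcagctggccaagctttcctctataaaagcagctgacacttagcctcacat

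Levels are given as log2(intensity + 16), so a difference of 1 is 2-fold, and the levels of different genes cannot be compared because each probe set has its own brightness. Median intensity per array ran from 243 to 269. The defining microglial genes were bright on every array, with Cx3cr1 between 18.15 and 18.43 and P2ry12 between 12.67 and 14.17, and 0 of the 8 microglial markers measured lay below the array median on any array. The p50 arrays stood apart in genes of the sex chromosomes: Xist, expressed from the inactive X of females, lay at 15.90 and 16.64 on them and between 7.71 and 8.30 on the other arrays. A p50 difference therefore cannot be told apart from a difference in sex.

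The control EAE array held the highest level of all 10 transcripts, while 12% of the 18160 genes bright enough to be tested were highest on it. The icKO EAE IGU array was second for 9 of the 10, and icKO EAE was second for Mmp8. The lowest level was on the control EAE p50 array for 6 transcripts and on the icKO naive array for 4. Ranked by range over the 8 arrays among the 18160 tested genes, S100a8 was number 8, Ngp 18, S100a9 19, Retnlg 22 and Camp 27. The median range was 6.03 for the 10 transcripts and 0.66 for all tested genes.

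**Figure D1:**
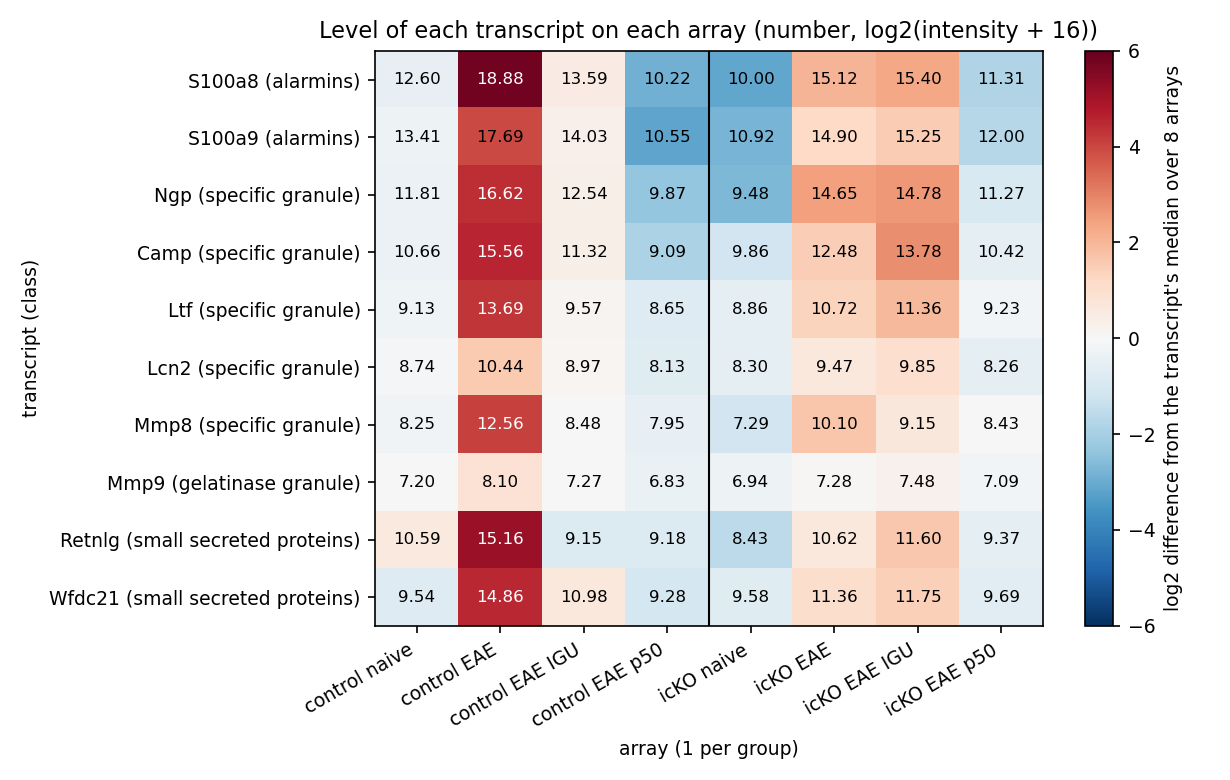
Level of each of the 10 transcripts (rows) on each of the 8 arrays (columns, control left and icKO right of the line). The printed number is log2(intensity + 16), and the colour is its log2 difference from that transcript's median over the arrays. The control EAE column is the darkest red throughout, up to 18.88 for S100a8, and the EAE IGU columns differ between the genotypes.

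Of the 10 transcripts S100a8, an alarmin gene, had the widest spread. S100a8 lay at 12.60 in control and 9.997 in icKO on the naive arrays, at 18.88 and 15.12 in EAE, at 13.59 and 15.40 in EAE IGU, and at 10.22 and 11.31 in EAE p50. Its level in control EAE was 3.47 above the next array. S100a9 lay at 13.41 and 10.92 in naive, 17.69 and 14.90 in EAE, 14.03 and 15.25 in EAE IGU, and 10.55 and 12.003 in EAE p50. The subunit genes thus ranked the arrays in the same order apart from the lowest pair, which changed places, with a Pearson correlation of 0.99 over the 8 arrays. In intensity, S100a8 went from 6174 to 480848 between the control naive and control EAE arrays and from 1006 to 35535 between the icKO arrays.

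Among the specific granule genes, Ngp, which encodes neutrophilic granule protein, followed the alarmins. Ngp lay at 11.81 in control and 9.48 in icKO on the naive arrays, 16.62 and 14.65 in EAE, 12.54 and 14.78 in EAE IGU, and 9.87 and 11.27 in EAE p50. Camp, the cathelicidin precursor, lay at 10.66 and 9.86 in naive, 15.56 and 12.48 in EAE, 11.32 and 13.78 in EAE IGU, and 9.09 and 10.42 in EAE p50. For both genes the 2 highest arrays were control EAE and icKO EAE IGU. Ltf, which encodes the iron-binding protein lactoferrin, lay at 9.13 and 8.86 in naive, 13.69 and 10.72 in EAE, 9.57 and 11.36 in EAE IGU, and 8.65 and 9.23 in EAE p50. Mmp8, neutrophil collagenase, lay at 8.25 and 7.29 in naive, 12.56 and 10.10 in EAE, 8.48 and 9.15 in EAE IGU, and 7.95 and 8.43 in EAE p50. Mmp8 was the only one of the 10 with a higher level in icKO EAE than in icKO EAE IGU. Lcn2, lipocalin 2, which binds bacterial siderophores and is also made by reactive astrocytes, ranged from 8.13 on the control EAE p50 array to 10.44 on the control EAE array, with 8.85 as the median.

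The remaining transcripts differed in how far they spread. Retnlg, a resistin-like secreted protein of neutrophils, lay at 10.59 in control and 8.43 in icKO on the naive arrays, 15.16 and 10.62 in EAE, 9.15 and 11.60 in EAE IGU, and 9.18 and 9.37 in EAE p50. Wfdc21, a secreted protein with a WAP domain, lay at 9.54 and 9.58 in naive, 14.86 and 11.36 in EAE, 10.98 and 11.75 in EAE IGU, and 9.28 and 9.69 in EAE p50. The control EAE array stood alone for both genes, 3.56 above the next array for Retnlg and 3.11 for Wfdc21. Mmp9, gelatinase B of the gelatinase granules, ranged from 6.83 to 8.10 and lay below the array median of named probe sets on all 8 arrays, so it was left out of the tests.

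EAE was compared with naive within each genotype. In control, 9 of the 10 transcripts were at least 2-fold higher in EAE (4.59% of all tested genes were), with a median log2 difference of 4.56 against 0.02 for all tested genes. S100a8 was 77.7-fold higher, which was the largest increase among the tested genes, followed by Wfdc21 at 39.9-fold and Camp at 29.8-fold. In icKO, 9 of the 10 were again at least 2-fold higher (4.72% of all tested genes), with a median of 2.40. Ngp was 35.9-fold higher in icKO EAE than in icKO naive, S100a8 34.8-fold and S100a9 15.8-fold, whereas Wfdc21 was 3.44-fold and Ltf 3.64-fold higher. Mmp9 was the transcript below 2-fold in both genotypes, at 1.87-fold in control and 1.27-fold in icKO.

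With 1 array per group, these differences were tested in an additive model of state and genotype over the 8 arrays, in which the spread is how far the genotype differences vary between states. Limma called 0 of the 9 tested members, against 3.72% of all tested genes. An unadjusted p under 0.05 was found for 8 of the 9, and for 3480 of the 18160 tested genes. Mmp8 had the lowest limma adjusted p of the members, 0.0657, at a log2 difference of 3.56 ± 0.75 (SE). Ngp gave 4.99 ± 1.18 (limma adjusted p = 0.0875), S100a8 gave 5.70 ± 1.38 (limma adjusted p = 0.0939) and Retnlg gave 3.38 ± 1.53 (limma adjusted p = 0.304). Most of the tested members lay among the genes that departed most from additivity. By residual SD, Retnlg was number 1 of 18160 with 2.13, S100a8 number 2 with 1.93 and Camp number 3 with 1.73. Lcn2 was number 465 with 0.56, and the median of all tested genes was 0.17. The median difference of the members was 3.56 in this fit, 1.72 without the control EAE array and 5.56 without the icKO EAE array. With genes filtered at the 70th percentile, Mmp8 (limma adjusted p = 0.0364) and Ngp (limma adjusted p = 0.0497) passed.

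**Figure D2:**
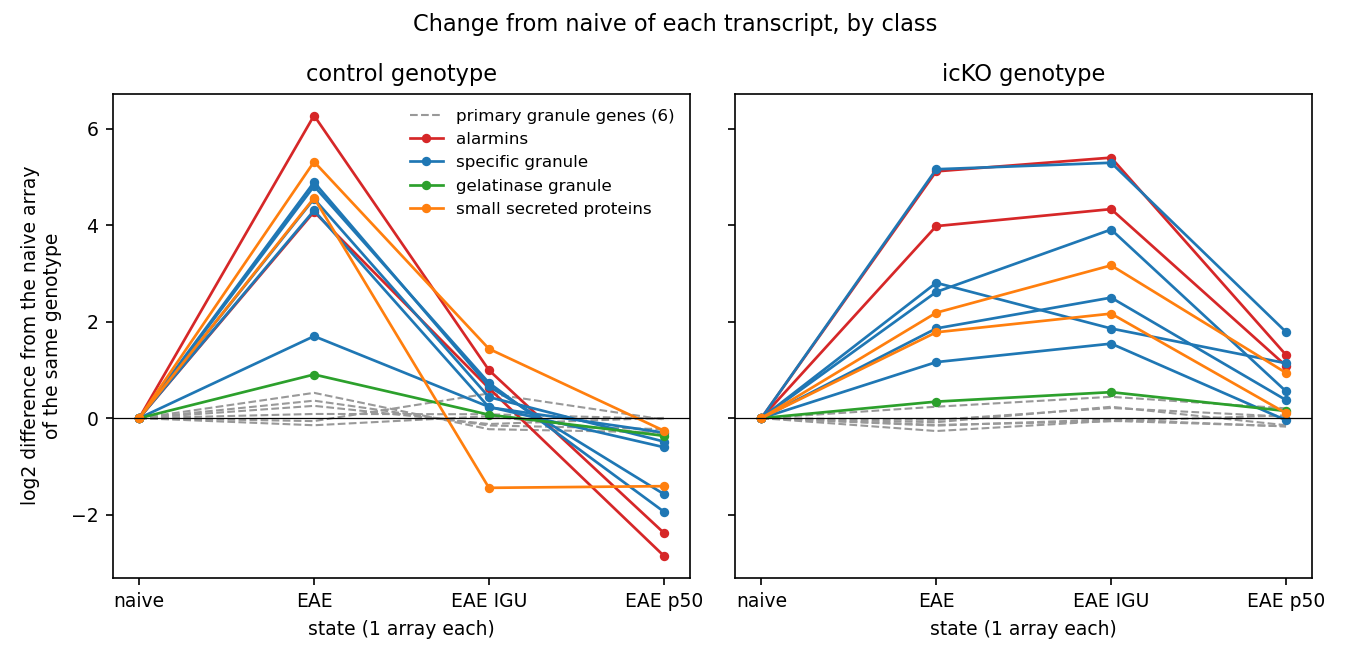
Log2 difference of each transcript from the naive array of its own genotype (vertical axis) in each state (horizontal axis, 1 array a state), for control (left) and icKO (right). Lines join the arrays of 1 gene and stand for no time course; colours give the class, and dashed grey lines the 6 primary granule genes. In control the lines of 8 transcripts reach 4.28 to 6.28 in EAE, in icKO the same 8 fan out from 1.78 to 5.16, and every grey line stays under 1 in both.

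How far the EAE difference was shared by the genotypes varied from gene to gene. Relative to naive, S100a9 gave log2 differences of 4.28 for control and 3.98 for icKO, and Ngp gave 4.81 and 5.16. For Wfdc21 the differences were 5.32 in control and 1.78 in icKO, for Ltf 4.55 and 1.86, for Camp 4.90 and 2.62, and for Retnlg 4.57 and 2.19. Ngp and Ltf, both genes of specific granules, thus differed in this respect on these single arrays. Their naive levels differed too: in icKO naive, Ngp was 5.01-fold and Ltf 1.21-fold below control. In EAE both were lower in icKO, Ngp 3.93-fold and Ltf 7.81-fold. The genotype difference of the EAE change was fitted with limma on 1 residual degree of freedom, and 0 genes passed (0% of all tested genes; 1129 genes and 5 of the 9 members had an unadjusted p under 0.05). That fit used 1 shared genotype difference for EAE IGU and EAE p50. Its spread is how far the genotype differences of these states lie apart. Wfdc21 gave -3.54 ± 0.37 there (limma adjusted p = 0.521) and was number 2 of the tested genes by p. Ltf gave -2.69 ± 0.62 (limma adjusted p = 0.599) and Ngp 0.35 ± 0.49. Wfdc21 passed with a trended and robust prior (limma adjusted p = 0.0491) and with genes filtered at the 70th percentile (limma adjusted p = 0.0455).

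The genotypes were next compared within each state, for which 1 array pair allows no test. On the naive arrays 9 of the 10 transcripts were lower in icKO, and 4 were at least 2-fold lower (1.64% of all tested genes). These 4 were S100a8 (6.06-fold), S100a9 (5.63-fold), Ngp (5.01-fold) and Retnlg (4.46-fold), while Wfdc21 differed by 1.03-fold. In EAE all 10 were lower in icKO and 8 were at least 2-fold lower (0.567% of all tested genes), with a median log2 difference of -2.88. Retnlg was 23.2-fold, S100a8 13.5-fold and Wfdc21 11.3-fold lower, and these were the 3 most negative differences of all tested genes. Lcn2 and Mmp9 were the transcripts under 2-fold, at 1.96-fold and 1.77-fold.

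In EAE IGU and EAE p50 the sign was the other way. With iguratimod all 10 were higher in icKO, 6 of them at least 2-fold (1.26% of all tested genes), with a median of 1.5. Retnlg was 5.50-fold, Camp 5.48-fold and Ngp 4.73-fold higher. On the p50 arrays every transcript lay above its control level (median 0.53), and 4 were at least 2-fold higher (0.292% of all tested genes), namely S100a9 (2.73-fold), Ngp (2.64-fold), Camp (2.52-fold) and S100a8 (2.13-fold). Averaged over the 4 states in the additive fit, icKO minus control ranged from -1.01 ± 1.08 for Retnlg to -0.02 ± 0.88 for Camp, and limma called 0 members (0% of all tested genes; 982 genes and 0 members had an unadjusted p under 0.05; lowest limma adjusted p of a member 0.921). The median over the members, -0.57, was 0.19 without either EAE array.

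**Figure D3:**
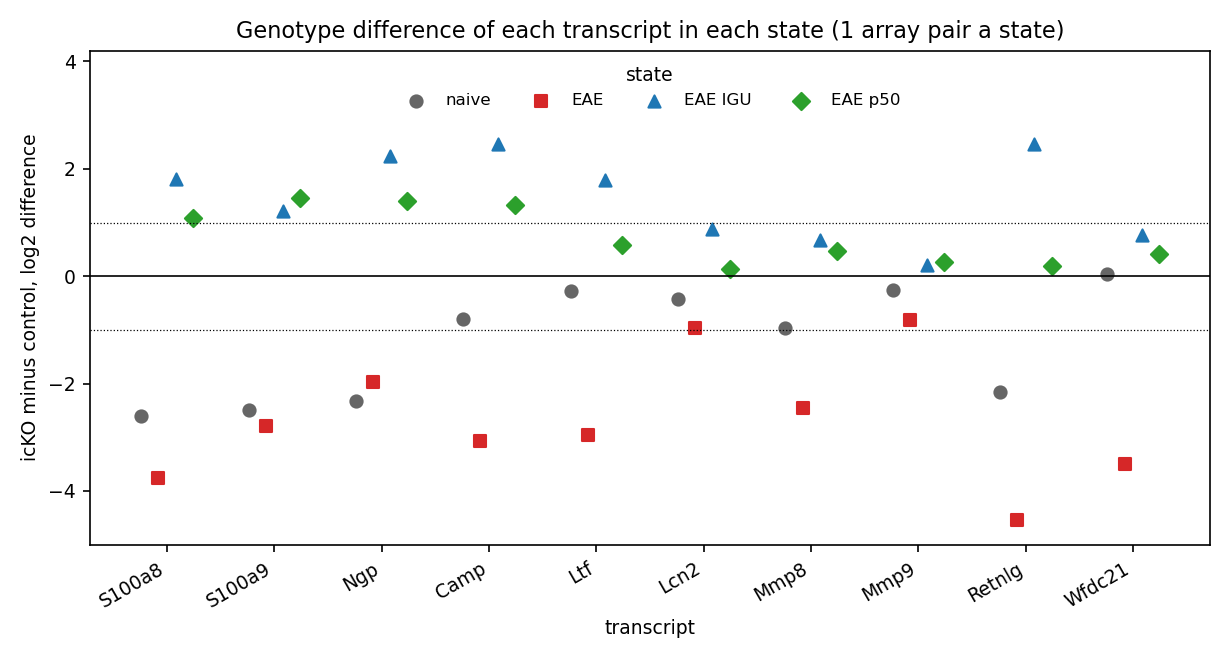
Log2 difference between icKO and control (vertical axis) for each of the 10 transcripts (horizontal axis) in naive, EAE, EAE IGU and EAE p50, with 1 array pair a state. Dotted lines mark 2-fold. All red squares (EAE) lie below 0, down to -4.54 for Retnlg, and all blue triangles (EAE IGU) and green diamonds (EAE p50) lie above 0.

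Iguratimod was compared with untreated EAE. In control, 9 of the 10 transcripts were at least 2-fold lower with iguratimod (1.7% of all tested genes), with a median log2 difference of -4.08. Retnlg was 64.6-fold, S100a8 38.9-fold and Camp 18.9-fold lower, and Retnlg and S100a8 had the 2 most negative differences of all tested genes. On the control EAE IGU array 9 of the 10 still lay above control naive, by a median over the 10 of 0.53, and Retnlg lay below it at a log2 difference of -1.44. Wfdc21 was 2.71-fold higher than naive (1.78% of all tested genes were at least 2-fold higher) and Retnlg 2.72-fold lower (1.95%). In icKO, 9 of the 10 were higher with iguratimod than in untreated EAE, by a median of 0.37 over the 10, but Camp alone reached 2-fold (2.45-fold; 0.683% of all tested genes). Mmp8 was the exception in icKO, with a log2 difference of -0.95. Against icKO naive, the icKO EAE IGU array held 9 of the 10 at least 2-fold higher (2.04% of all tested genes), with S100a8 42.4-fold and Ngp 39.4-fold higher.

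Over both genotypes in the additive fit, limma called 0 members for iguratimod against EAE (0% of all tested genes; 1546 genes and 1 member, Mmp8, with an unadjusted p under 0.05). Mmp8 gave -2.52 ± 0.75 (limma adjusted p = 0.531), S100a8 gave -2.50 ± 1.38 (limma adjusted p = 0.685) and Camp gave -1.47 ± 1.24 (limma adjusted p = 0.803). The median over the tested members was -1.75, and it was -0.16 without the control EAE array, -3.57 without the icKO EAE array, -0.40 without the control EAE IGU array and -3.12 without the icKO EAE IGU array. For iguratimod against naive, limma called 0 members (0.00551% of all tested genes), and Ngp had the lowest adjusted p among them, with 3.02 ± 1.18 (limma adjusted p = 0.441). The genotype difference of the iguratimod change was fitted on 1 residual degree of freedom, and limma called 0 genes (0% of all tested genes; 1514 genes and 7 of the 9 members with an unadjusted p under 0.05). That fit used 1 shared genotype difference for naive and EAE p50. Its spread is how far the genotype differences of these states lie apart. Wfdc21 was number 1 of all tested genes by p there, at 4.27 ± 0.32 (limma adjusted p = 0.591). Ltf was number 12, at 4.75 ± 0.51 (limma adjusted p = 0.591). The comparisons with EAE and the comparisons between genotypes share the control EAE array, so their member values are not independent of one another.

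The EAE p50 arrays held low levels of the transcripts, with opposite signs against naive in the 2 genotypes. Against control naive all 10 were lower, 5 of them at least 2-fold (2.33% of all tested genes), with S100a9 7.24-fold and S100a8 5.2-fold lower. Against icKO naive 9 of the 10 were higher, 4 at least 2-fold (3.19% of all tested genes), led by Ngp at 3.45-fold. Limma called 0 members for EAE p50 against naive (0.754% of all tested genes; 0 members with an unadjusted p under 0.05), and the additive differences ran from -0.88 ± 1.17 for S100a9 to 0.42 ± 0.75 for Mmp8.

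Against EAE, the p50 arrays held all 10 at least 2-fold lower in control (2.47% of all tested genes), with S100a8 404-fold and S100a9 141-fold lower. In icKO 9 of the 10 were at least 2-fold lower (4.17% of all tested genes), with S100a8 14.0-fold and Ngp 10.4-fold lower. Limma called 0 members (2.72% of all tested genes), while 8 of the 9, and 3536 of the 18160 tested genes, had an unadjusted p under 0.05. S100a8 gave -6.23 ± 1.38 (limma adjusted p = 0.0818), Lcn2 gave -1.75 ± 0.42 (limma adjusted p = 0.0931) and Camp gave -4.27 ± 1.24 (limma adjusted p = 0.138). Without the icKO EAE array Wfdc21 passed, at -5.58 (limma adjusted p = 0.0126), and the median over the members moved from -3.63 to -5.97. Without the control EAE array the median was -1.88.

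Primary granule genes varied little over the arrays. Mpo (myeloperoxidase), Elane, Prtn3 and Ctsg (serine proteases), Prss57 and Ms4a3 were all measured, and 4 of the 6 lay below the array median on every array, so that 2 could be tested. Their ranges over the 8 arrays ran from 0.25 to 0.89, against 1.27 to 8.88 for the 10 transcripts, although 3 of the 6 were also highest on the control EAE array. Elane lay at 7.07 in control and 6.96 in icKO on the naive arrays and at 7.60 and 6.87 in EAE. Mpo lay at 7.32 and 7.26 in naive and at 7.41 and 7.22 in EAE. None of the 6 was 2-fold different between EAE and naive in either genotype, and for EAE against naive limma gave 0.30 ± 0.21 for Ms4a3 (limma adjusted p = 0.486) and -0.10 ± 0.19 for Ctsg (limma adjusted p = 0.812).

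Other genes of specific granules and of mature neutrophils had smaller ranges, with medians of 1.20 and 1.01 over the 8 arrays. Of 8 other specific granule genes, 6 were highest on the control EAE array. Pglyrp1, a peptidoglycan-binding granule protein, lay at 8.08 in control naive and 11.13 in control EAE, and at 8.26 and 9.22 in icKO. Hp, haptoglobin, fell by 1.40 ± 0.24 in EAE p50 against EAE (limma adjusted p = 0.0470), and Chil3, a chitinase-like protein also made by monocytes and macrophages, rose by 2.24 ± 0.38 in EAE against naive (limma adjusted p = 0.0411). Chil3 was higher in icKO EAE (10.85) than in control EAE (9.87), unlike the 10 transcripts. Of the 14 mature neutrophil genes measured, 10 were highest on the control EAE array and 0 of the 11 tested passed for EAE against naive (3.72% of all tested genes did). Ly6g, the surface marker used to sort mouse neutrophils, lay at 10.01 and 9.33 on the naive arrays, 10.52 and 9.14 in EAE, 10.11 and 10.15 in EAE IGU, and 9.23 and 9.45 in EAE p50. Slfn4, a schlafen family gene of myeloid cells, had the largest difference of the list, 1.34 ± 0.29 (limma adjusted p = 0.0737). Stfa2, Stfa3 and Stfa2l1 are near copies of one another and their probes may share signal.

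Genes for regulators, receptors and attractants were read from lists as well. In EAE against naive, 0 of 3 tested granulocyte transcription factors, 0 of 8 receptors and inhibitors, 0 of 3 other S100 genes and 0 of 2 neutrophil attractants passed, against 3.72% of all tested genes. Cebpe, the factor needed for specific granules, lay between 5.87 and 6.31 over the 8 arrays. That is among the dimmest named genes on every array (percentile 2.22 at most), so Cebpe was not tested. Its narrow range so near the floor does not show whether it changed. Tlr4, a receptor for calprotectin, gave -0.03 ± 0.17 (limma adjusted p = 0.942). Lrp1, a lipoprotein receptor that also binds lactoferrin, rose by 1.53 ± 0.17 in EAE p50 against EAE (limma adjusted p = 0.0163). Of the other S100 genes, S100a4 gave 0.85 ± 0.31 (limma adjusted p = 0.220), and the attractant gene Cxcl2 gave 0.39 ± 0.22 (limma adjusted p = 0.404).

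The genes whose pattern was most like that of the 10 transcripts were found by Pearson correlation over the 8 arrays with the mean of the centred members. The 12 closest named genes were Anxa1 (0.99), Cpne2 (0.98), Dnajc9, Slfn4, Ceacam2, Pglyrp1, Mcemp1, Rida, Fcnb, Ifitm2, Tmem154 and Pygl (0.95). Of 18151 other tested genes, 78 reached 0.9. Their ranges were smaller than those of most members, from 0.44 for Rida to 3.13 for Pglyrp1. The points are 8 arrays with 1 per group, and all 12 genes were highest on the control EAE array, like the members. Anxa1, an annexin of the gelatinase granules, lay at 8.38 in control naive and 9.67 in control EAE, and at 8.02 and 8.69 in icKO.

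Markers of other leukocytes were set beside these results. The mean log2 level of 10 monocyte markers relative to control naive was 1.3 in control EAE and 1.77 in icKO EAE, 0.19 and 1.03 in EAE IGU, and -0.03 and 0.23 in EAE p50. For the 10 neutrophil transcripts the same values were 4.16 and 1.48, 0.40 and 1.85, and -1.22 and -0.48. Between the EAE arrays, 1 of the monocyte markers was at least 2-fold higher in icKO, Fn1 at a log2 difference of 2.49, and the median over the list was 0.40. Plac8 went the other way, at -0.75, while all 10 neutrophil transcripts were lower in icKO EAE. Between the EAE IGU arrays, 5 of the 10 monocyte markers were at least 2-fold higher in icKO and 0 lower. The list median was 1.03, and 1.26% of all tested genes were at least 2-fold higher. With iguratimod against untreated EAE, 6 monocyte markers were at least 2-fold lower in control (1.7% of all tested genes). In icKO 3 were (276 of 18160 tested genes). Ly6c2, a marker of inflammatory monocytes, lay at 14.27 in control EAE and 13.96 in icKO EAE. In EAE against naive 3 of 9 tested monocyte markers passed, all higher in EAE (3.72% of all tested genes passed). They were Ly6c2 at 4.32 ± 0.40 (limma adjusted p = 0.0196), Ms4a4c at 2.61 ± 0.38 (limma adjusted p = 0.0306) and Chil3. Chil3 is also on the list of other specific granule genes and is not one of the 10 transcripts. The summed intensity of the monocyte markers ranged from 2943 to 3858 on the naive arrays and 27428 to 28791 in EAE. It ranged from 5721 to 12845 in EAE IGU and 3898 to 4966 in EAE p50. Bright markers weigh most in such a sum, and Ly6c2 was the brightest of the list on both EAE arrays. The means of 8 T cell and 7 B cell markers stayed within 0.26 and 0.21 of control naive on every array. Single T cell markers moved further. Between the EAE arrays, icKO minus control ran from -0.35 for Cd8a to 0.88 for Cd3e, with a median of 0.22. In the same order as above, the mean of 8 microglial markers was -0.17 and -0.67 in EAE, -0.35 and -0.44 in EAE IGU, and 0.45 and 0.26 in EAE p50, and it was 0.21 in icKO naive. The part of a different share of leukocytes in the sample in these differences was not tested.

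**Figure D4:**
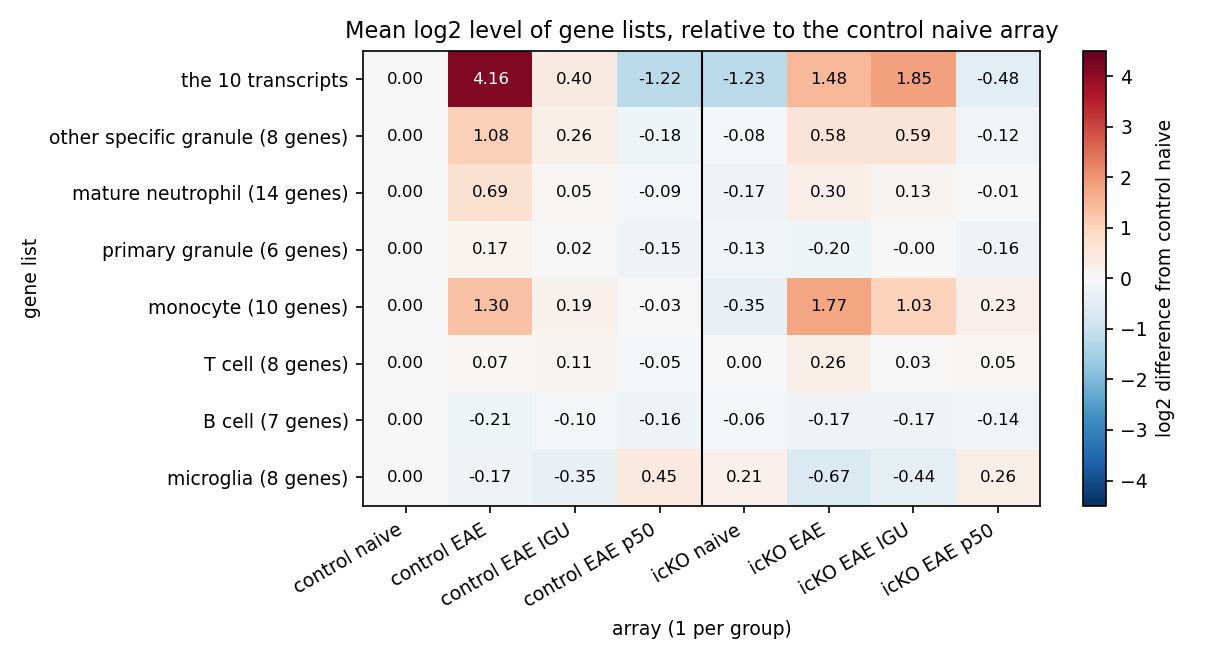
Mean log2 level of the 10 transcripts and of 7 marker lists (rows) on each of the 8 arrays (columns), as a difference from the control naive array. The 10 transcripts are highest in control EAE (4.16), the monocyte list in icKO EAE (1.77), and the primary granule list stays within 0.20 of control naive.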

How the data were processed

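The deposited table holds intensities on a linear scale for 65956 array transcript clusters on 8 arrays, while Affymetrix Expression Console is the tool listed in the submitters' processing notes; summarisation and normalization are not given in the sources used here. Per the labels' protocols, biotin labelling used a pico kit for whole transcripts. S100a8, S100a9 and Ngp exceed 65535, the ceiling of raw scanner values, on the control EAE array and were kept as deposited, so their folds against that array rest on values above it. Low values were not called present or absent, and precision is limited by there being 8 arrays.

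Probe sets were named from the platform annotation, updated through RefSeq (GRCm38.p6): 31089 had 1 gene, 33206 had none, and 1661 with several were not used. The brightest probe set stood for a gene. Values were taken as log2(intensity + 16) with no further normalization, which understates differences of dim genes. Tested genes (18160) had 1 or more arrays above the 50th percentile of named probe sets; a member that passed through its bright arrays alone had to vary, and Mmp9 did not pass.

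The test was limma 3.58.1 (R 4.3.3), lmFit and eBayes, on an additive model of state and genotype with 3 residual degrees of freedom, adjusted by Benjamini-Hochberg over all tested genes at 0.05. It was tested on simulated data in which the added EAE effect was the same in both genotypes. Effects that differ between the genotypes, as they do for many members, were not simulated for this model. The labels do not tie arrays to separate animals, so p-values reflect only how these arrays vary, which may be technical. Single pairs of arrays were counted at 2-fold without a test. Members, lists and tests were chosen with earlier results of these data known. All 10 members are named. Of the other lists, genes that passed and list extremes are named. The 12 genes of highest correlation to the members, after the exclusions given with them, are named too. Examples chosen after their values were seen were added (Ly6g, Elane, Mpo, Cebpe, Tlr4, Cx3cr1, P2ry12, Xist). Alternatives were other filters, normalizations, pseudocounts, priors and left-out arrays.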

Additional observations from a re-analysis of the deposited data

How the results depend on the processing

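Counts of members that passed stayed at 0 under the alternatives run, with these exceptions. For EAE against naive 2 members passed with a filter at the 70th percentile and 1 with arrays centred on their median (Mmp8, limma adjusted p = 0.0435). For EAE p50 against EAE the count ran from 0 to 1 over the fits without each array. When the EAE change was compared between genotypes, 1 member passed with the 70th percentile filter (13 genes in all) and 1 with a trended and robust prior (26 genes), against 0 otherwise. Over all alternatives, 0 of 162 member values changed sign for EAE against naive and 0 of 153 for EAE p50 against EAE, while 6 of 153 did for EAE IGU against EAE, 1 of 153 for EAE IGU against naive, 18 of 153 for EAE p50 against naive and 26 of 162 for icKO against control.

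Without each array in turn, the median of the members ran from 1.72 to 5.56 for EAE against naive, -3.57 to -0.16 for EAE IGU against EAE, 0.63 to 3.18 for EAE IGU against naive, -5.97 to -1.88 for EAE p50 against EAE, -1.04 to 0.57 for EAE p50 against naive and -0.98 to 0.19 for icKO against control. The genes called over the table ran from 0 to 587 for EAE against naive (676 with all arrays; 266 after quantile normalization, 230 without both EAE p50 arrays), from 68 to 423 for EAE p50 against EAE (494), from 50 to 219 for EAE p50 against naive (137; 364 at the 70th percentile, 411 after quantile normalization, 399 centred, 219 without both EAE IGU arrays), and were 0 throughout for EAE IGU against naive (1; 3 at the 70th percentile, 0 without both EAE p50 arrays).

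Among single pairs, at least 2-fold higher members numbered 1 for EAE IGU against naive in control, against 5 at 1.5-fold and 2 with centred arrays, and 1 for EAE IGU against EAE in icKO, against 3 at 1.5-fold and 2 after quantile normalization. The cause of these shifts was not tested. Without the filter Mmp9 gave 0.63 for EAE against naive (limma adjusted p = 0.355). Fits of the genotype difference without an array leave no residual degree of freedom and were not run. The labels give no replicate numbers, so no fit with a replicate block was made. The additive model averages the genotype differences found within the states and tests none of them singly.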
